A study of Mus musculus with 16 samples.

Results

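Mice that all received tumour necrosis factor (TNF) were compared here according to the injection they had been given 1 h earlier, DEX or the vehicle PBS. The DEX+TNF group held 4 libraries and the PBS+TNF group 4, so the comparison used 8 of the 16 samples of the series. Its members are the 11809 genes, of 55414 in the table, that passed a filter on low counts. Each library held RNA of Paneth cells that had been purified by fluorescence-activated sorting from the small intestine of C57BL/6J mice, taken 3 h after the second injection. The labels give the 4 libraries of a group as biological replicates, and the study's text describes its samples as taken from individual mice. The other 8 samples, PBS+PBS and DEX+PBS, received PBS in place of TNF and are used here as reference levels. The sources used here do not spell DEX out, and the list of glucocorticoid genes rests on the usual reading, dexamethasone, a synthetic glucocorticoid. Injections were given to whole animals, so a change in Paneth cells can be direct or can pass through other cells. Ages, sexes and doses are not given in the sources used here.

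Paneth cells are secretory cells of the crypt base that release lysozyme and alpha-defensins. TNF binds its receptor on many epithelial cells and activates the transcription factor NF-kB, which induces chemokines, adhesion molecules and its own inhibitors, Nfkbia and Tnfaip3. Interferons act through STAT transcription factors, which bind response elements in the promoters of antiviral genes and of the guanylate-binding proteins. Glucocorticoids bind the glucocorticoid receptor, a nuclear receptor that induces genes such as Tsc22d3, Fkbp5 and Sgk1 and is known to repress inflammatory transcription.

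Levels are counts per 1000000 (CPM) of a library size scaled by TMM, and sums over cell type markers are CPM of the plain total. Differences are log2 fold changes of DEX+TNF over PBS+TNF ± their standard error (SE), with n = 4 libraries in each group. A gene is called when the edgeR quasi-likelihood test gives an adjusted p under 0.05, and 2 groups have no overlap when all 4 values of one lie above all 4 of the other. Totals of the 8 libraries were 11510691 to 13997031 counts, and alpha-defensin genes took 32.2% to 59.3% of them. Where markers or transcripts differ between such bulk samples, fewer cells of a type and less RNA per cell cannot be told apart.

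The 4 DEX+TNF libraries were not alike, and each is therefore shown singly. In 29 NF-kB list genes, every PBS+TNF library lay above all 8 libraries that had received no TNF. DEX+TNF 1 lay above those 8 libraries in 27 of the 29 genes and DEX+TNF 2 in 28. DEX+TNF 4 did so in 14 and DEX+TNF 3 in 3. At the level of the PBS+TNF range or above it, DEX+TNF 1 and 2 each had 20 of the 29 genes, DEX+TNF 4 had 2 and DEX+TNF 3 had 0. The libraries labelled DEX+TNF 3 and 4 thus stood at or near the level of mice without TNF in many or most of these genes. Whether the injections and labels of these 2 libraries are right was not tested, so a fold change over the 4 DEX+TNF libraries is an average of unlike pairs. In 12 genes of the glucocorticoid list all DEX+PBS libraries exceeded all PBS+PBS libraries. DEX+TNF 1 to 4 exceeded all 8 libraries without DEX, PBS+TNF included, in 7, 6, 10 and 10 of these 12.

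The distance between libraries, as the root mean square difference of log2 CPM over all tested genes, gave the same division. DEX+TNF 1 and 2 were 0.539 apart, the smallest distance within the 4 groups. After each other, their nearest library was PBS+TNF 2, at 0.615 and 0.628. The nearest library to DEX+TNF 3 was DEX+PBS 3, at 0.705, and the nearest to DEX+TNF 4 was DEX+PBS 4, at 0.759. DEX+TNF 3 and 4 were 0.916 apart. Counts of DEX+TNF 1 and 2 differed by more than sampling noise (chi-square per degree of freedom 8.94). That value was the lowest of all pairs within a group, and the next, for PBS+PBS 2 and 3, was 24.6. Such a value cannot show that 2 libraries come from different mice. They were kept as separate samples as labelled, and whether they share an origin was not tested. Among 2028 genes whose DEX+TNF values spanned more than 2 log2 units, libraries 1 and 2 both lay above 3 and 4 in 506 and both below them in 1081. PBS+TNF values spanned that much in 1481 genes.

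In the edgeR fit 26 genes passed on the higher side and 14 on the lower side, which is 0.22% and 0.119% of those tested. All 40 called genes had no overlap between the groups. PBS+TNF means lay below PBS+PBS means in 25 of the 26 called increases and in 0 of the 14 called decreases. DEX+TNF means lay below PBS+PBS means in 10 of the 26 and in 3 of the 14. No overlap occurred in 410 genes on the higher side (3.47%) and 344 on the lower side (2.91%). The median log2 fold change of all tested genes was 0.03, and 1408 genes (11.9%) had an unadjusted p under 0.05, 891 of them higher and 517 lower. The calls depended on which libraries entered the fit. edgeR called 0 genes without DEX+TNF 3, without DEX+TNF 4, or without PBS+TNF 1, 3 or 4, and 1 without PBS+TNF 2, with 1017 to 1425 genes at an unadjusted p under 0.05. It called 0 in a fit of the 8 libraries alone (975 at an unadjusted p under 0.05). Without DEX+TNF 1 it called 89 genes and without DEX+TNF 2 it called 102. Without DEX+TNF 3 and 4 together edgeR called 0 genes (1206 at an unadjusted p under 0.05) and DESeq2 116, of which 30 were among the 40. Without DEX+TNF 1 and 2 together they called 1317 and 1836. With all libraries DESeq2 called 274 genes, 169 higher and 105 lower, among them all 40.

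**Figure D1:**
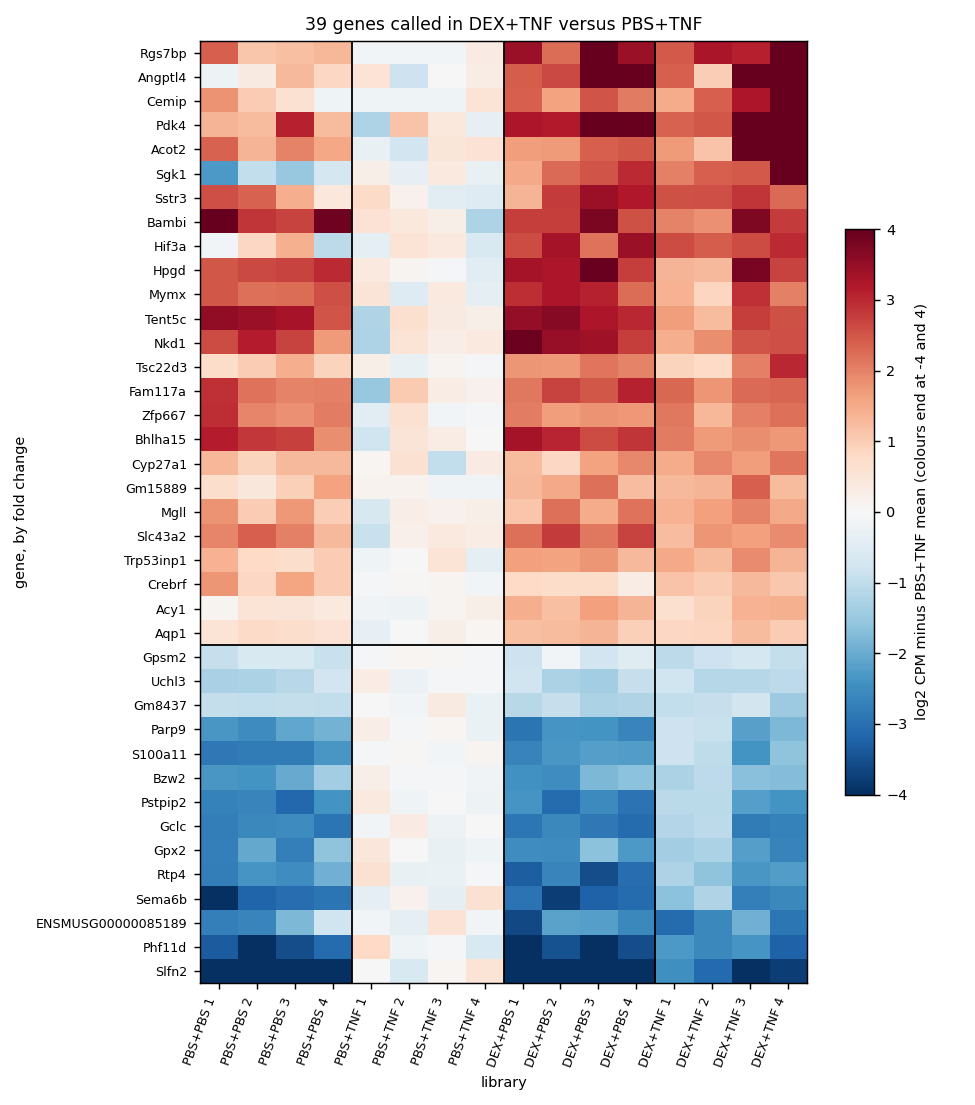
Log2 CPM of 39 called genes (rows, ordered by fold change) in all 16 libraries (columns), as the difference from the PBS+TNF mean in colour from blue (lower) to red (higher). All 4 DEX+TNF libraries stand on 1 side of all 4 PBS+TNF libraries in every row, and Pdk4, Angptl4 and Acot2 are redder in DEX+TNF 3 and 4 than in 1 and 2.

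Genes that glucocorticoids are known to induce were the first group. Of 47 listed genes 43 were tested, of which 5 were called higher and 0 lower, 10 had no overlap on the higher side and 4 on the lower side, and the median log2 fold change was 0.45. The median difference from the PBS+TNF mean was 0.43, 0.42, 0.29 and 0.68 log2 units in DEX+TNF 1 to 4. All 4 medians were above 0, unlike those of the NF-kB genes. Below the PBS+TNF range stood 7, 6, 14 and 12 of the 43 genes, and above it 23, 24, 18 and 24. In DEX+TNF 3 the mean difference was -0.03. Sgk1 (ENSMUSG00000019970, chromosome 10, 21758083 to 21875802, plus strand), a kinase of ion transport, was at 7.13, 4.82, 7.94 and 4.90 CPM in PBS+TNF 1 to 4 and at 24.8, 32.4, 33.6 and 115 CPM in DEX+TNF 1 to 4 (edgeR log2 fold change 3.06 ± 0.48, adjusted p = 0.0236). Its level in DEX+TNF 1 to 3 lay in the DEX+PBS range of 17.6 to 48.5 CPM, and library 4 stood above it. Sgk1 was the only gene called between DEX+PBS and PBS+PBS. The 5 called members were Sgk1, Tsc22d3, Hif3a, Pdk4 and Angptl4, of which Pdk4 and Angptl4 also stand in the fasting list and are counted in both, and the list shares Nfkbia and Lcn2 with the NF-kB list.

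Tsc22d3 (ENSMUSG00000031431, chromosome X, 139440091 to 139501408, minus strand), which encodes the anti-inflammatory leucine zipper protein GILZ, was at 7.13, 4.82, 6.54 and 5.84 CPM in PBS+TNF and 11.4, 10.7, 24.9 and 49.4 CPM in DEX+TNF (edgeR log2 fold change 2.00 ± 0.39, adjusted p = 0.0344). Libraries 3 and 4 held the higher values, and libraries 1 and 2 lay in the PBS+PBS range of 10.1 to 16.8 CPM. Hif3a (ENSMUSG00000004328, chromosome 7, 16764918 to 16796352, minus strand), a hypoxia-inducible factor subunit, was at 1.73, 3.38, 3.02 and 1.44 CPM in PBS+TNF and 14.6, 12.9, 14.5 and 18.9 CPM in DEX+TNF (edgeR log2 fold change 2.64 ± 0.45, adjusted p = 0.0276). It was the most even of these genes across the DEX+TNF libraries, and DEX+PBS libraries held 10.8 to 26.3 CPM.

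Fkbp5, a co-chaperone that restrains the glucocorticoid receptor, was at 12.3, 23.5, 18.1 and 31.05 CPM in PBS+TNF and 43.2, 44.5, 44.6 and 135 CPM in DEX+TNF, with no overlap but no edgeR call (edgeR log2 fold change 1.65 ± 0.43, adjusted p = 0.109). Zbtb16, a zinc finger repressor, was at 0.891 to 2.83 CPM in PBS+TNF and 5.97, 3.48, 8.98 and 17.8 CPM in DEX+TNF (edgeR log2 fold change 2.45 ± 0.61, adjusted p = 0.0938). DESeq2 called both (adjusted p = 0.0131 and 0.00567). Over the 43 tested genes of the list DESeq2 called 9 higher and 2 lower. Per1 (edgeR log2 fold change 0.41 ± 0.30, adjusted p = 0.639) and Klf9 (edgeR log2 fold change 0.45 ± 0.25, adjusted p = 0.511), a clock gene and a Krüppel-like factor, overlapped between the groups. The mTOR inhibitor Ddit4 (edgeR log2 fold change 0.79 ± 0.25, adjusted p = 0.187), the metallothionein Mt1 (edgeR log2 fold change 1.02 ± 0.28, adjusted p = 0.121) and the small GTPase Rhob (edgeR log2 fold change 0.62 ± 0.24, adjusted p = 0.304) had no overlap on the higher side. Cebpd, Dusp1, Stom and Tat lay below PBS+TNF in all DEX+TNF libraries. Tat, tyrosine aminotransferase, a classical glucocorticoid target of the liver, was at 56.1, 86.3, 39.8 and 56.9 CPM in PBS+TNF and 22.3, 29.1, 0.612 and 2.59 CPM in DEX+TNF (edgeR log2 fold change -2.13 ± 0.76, adjusted p = 0.253). Libraries without TNF had 0 to 0.685 CPM (PBS+PBS) and 0 to 0.459 CPM (DEX+PBS), so that the 2 pairs of DEX+TNF libraries again stood apart. Dusp1, a phosphatase that switches off MAP kinases, was at 11.9, 19.7, 12.5 and 11.4 CPM in PBS+TNF and 8.71, 11.1, 2.86 and 0.698 CPM in DEX+TNF (edgeR log2 fold change -1.26 ± 0.56, adjusted p = 0.381). All 4 of its DEX+TNF values lay below the lowest PBS+TNF value, with libraries 3 and 4 the lowest. Low-count filtering removed Anxa1, Cyp3a11, Fam107a and Slc19a3.

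**Figure D2:**
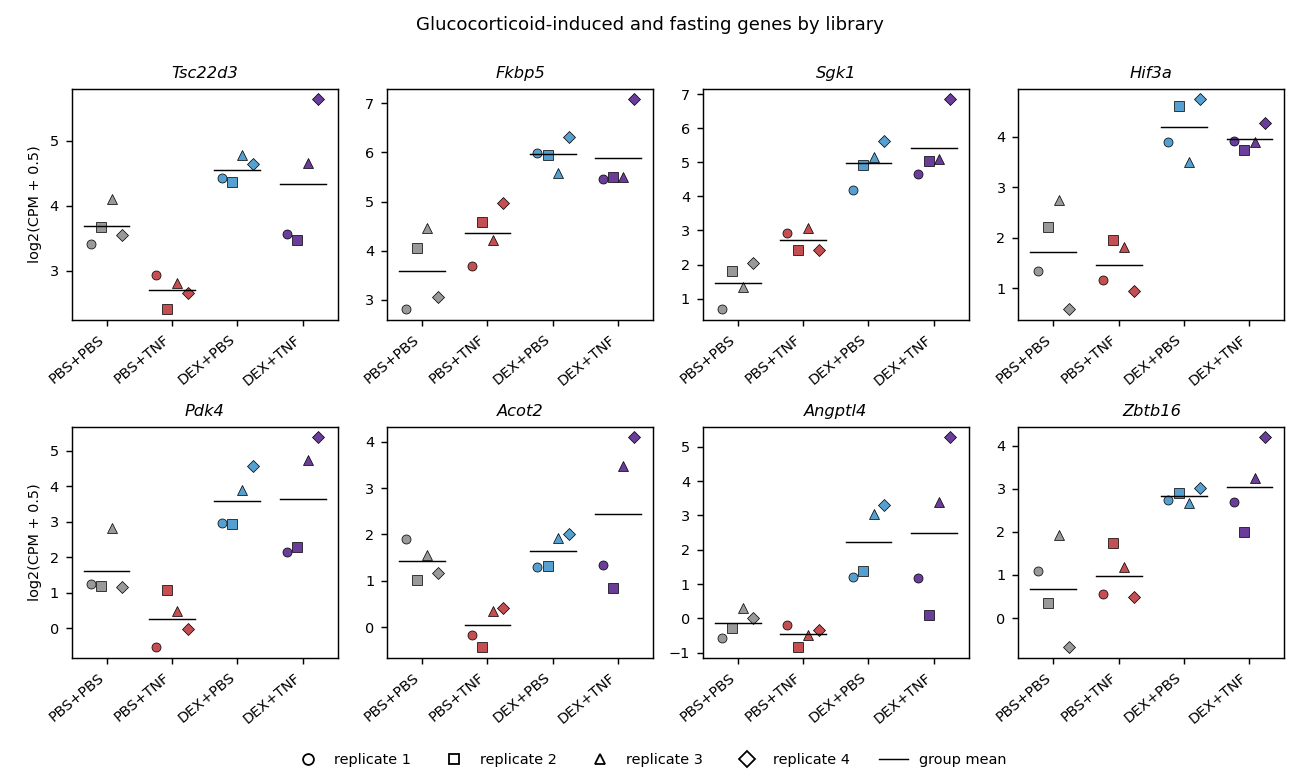
Log2(CPM + 0.5) of 8 genes of the glucocorticoid and fasting lists in the 4 groups, with 1 symbol per library and a line at the group mean. All DEX+TNF symbols lie above all PBS+TNF symbols in each panel, Hif3a is the most even within DEX+TNF, and Fkbp5 and Sgk1 are highest in DEX+TNF 4.

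Genes of fatty acid oxidation and fasting followed, a group that nuclear receptors including PPAR-alpha and the glucocorticoid receptor control. Of 32 listed genes 28 were tested, 4 were called higher, 2 of them shared with the glucocorticoid list, and 0 lower, and 8 had no overlap on the higher side. The median log2 fold change was 0.67, and the median difference from the PBS+TNF mean was 0.12 and 0.23 in DEX+TNF 1 and 2 against 1.04 and 1.31 in 3 and 4. Pdk4 (ENSMUSG00000019577, chromosome 6, 5483097 to 5496339, minus strand), a kinase that shuts off pyruvate dehydrogenase, had 0.193, 1.63, 0.914 and 0.495 CPM in PBS+TNF and 3.95, 4.37, 26.5 and 41.3 CPM in DEX+TNF (edgeR log2 fold change 4.43 ± 0.81, adjusted p = 0.0295). Libraries 3 and 4 held the higher values, and libraries 1 and 2 lay in the PBS+PBS range of 1.76 to 6.57 CPM.

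Angptl4 (ENSMUSG00000002289, chromosome 17, 33992724 to 34000804, minus strand), a secreted inhibitor of lipoprotein lipase, had 2, 1, 3 and 6 raw counts in PBS+TNF 1 to 4 and 22, 7, 98 and 765 in DEX+TNF 1 to 4 (edgeR log2 fold change 5.82 ± 1.14, adjusted p = 0.0351). The size of that change is poorly fixed because so few counts stand on the PBS+TNF side. Acot2 (ENSMUSG00000021226, chromosome 12, 84034428 to 84040647, plus strand), a mitochondrial acyl-CoA thioesterase, was at 0.385, 0.241, 0.773 and 0.842 CPM in PBS+TNF and 2.02, 1.29, 10.7 and 16.6 CPM in DEX+TNF (edgeR log2 fold change 3.70 ± 0.70, adjusted p = 0.0295). PBS+PBS libraries held 1.53 to 3.26 CPM of Acot2, so DEX+TNF 1 lay in that range, 2 below it and 3 and 4 above it. Cpt1a, which brings fatty acids into mitochondria, was at 19.8 to 31.3 CPM in PBS+TNF and 34.9, 35.5, 119 and 114 CPM in DEX+TNF (edgeR log2 fold change 1.47 ± 0.36, adjusted p = 0.0938). Cpt2, Ppara and Txnip also had no overlap on the higher side, and filtering removed Cd36, Cyp4a10, Cyp4a14 and Fgf21. Several of these genes are also active in enterocytes. The summed level of 14 enterocyte markers was 109 to 616 CPM in PBS+TNF and 429, 394, 329 and 1675 CPM in DEX+TNF 1 to 4. In DEX+TNF 4 that sum was the highest of the 16 libraries, and in DEX+TNF 3 it lay within the PBS+TNF range. The mean log2 CPM of the 12 tested enterocyte markers, which weights them equally, was 1.32, 1.17, 3.57 and 5.99 in DEX+TNF 1 to 4. In PBS+TNF it was 1.07 to 3.55. Libraries 4 and, by a very small margin, 3 were thus the highest of the 8, as in the fasting genes. Fabp1 and Fabp2 stand in both lists. The median log2 fold change of the enterocyte markers was 1.75 with 11 of 12 above 0, and 0 were called. Of the 14 markers, 4, 6, 0 and 0 were at 0 counts in DEX+TNF 1 to 4. Their part in the fasting result was not tested.

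The remaining called increases included genes of secretory differentiation and of Wnt signalling. Bhlha15 (ENSMUSG00000052271, chromosome 5, 144127086 to 144131259, plus strand), the transcription factor MIST1 of mature secretory cells, was at 17.9, 44.9, 38.3 and 31.3 CPM in PBS+TNF and 133, 103, 113 and 105 CPM in DEX+TNF (edgeR log2 fold change 1.77 ± 0.30, adjusted p = 0.0276). The 4 DEX+TNF values lay close together, around the lower end of the PBS+PBS range of 113 to 279 CPM. It overlaps Tecpr1 on the opposite strand, so its counts are uncertain unless counting used strand. Tent5c (ENSMUSG00000044468, chromosome 3, 100358944 to 100396702, minus strand), a poly(A) polymerase that supports mRNAs of secreted proteins, was at 18.5, 66.7, 54.9 and 50.5 CPM in PBS+TNF and 138, 104, 291 and 253 CPM in DEX+TNF (edgeR log2 fold change 2.04 ± 0.39, adjusted p = 0.0321). PBS+PBS libraries had 247 to 505 CPM, so DEX+TNF 1 and 2 were below that range and 3 and 4 inside it.

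Nkd1 (ENSMUSG00000031661, chromosome 8, 89247890 to 89324577, plus strand), a feedback inhibitor of Wnt signalling, was at 1.54, 5.61, 4.64 and 5.05 CPM in PBS+TNF and 10.6, 14.1, 22.4 and 23.5 CPM in DEX+TNF (edgeR log2 fold change 2.01 ± 0.38, adjusted p = 0.0295). Bambi (ENSMUSG00000024232, chromosome 18), a decoy receptor of TGF-beta family ligands and also a Wnt target, was at 25.6, 23.1, 20.3 and 7.13 CPM in PBS+TNF and 68.96, 60.6, 228 and 121 CPM in DEX+TNF (edgeR log2 fold change 2.66 ± 0.50, adjusted p = 0.0295). PBS+PBS libraries held 12.6 to 34.3 CPM of Nkd1 and 112 to 289.9 CPM of Bambi. Of 30 other Paneth cell genes, all tested, Bhlha15 was the only one called by edgeR, and the list's median log2 fold change was -0.05. Singly, the medians were 0.17, 0.17, 0.24 and -0.62 in DEX+TNF 1 to 4. Below the PBS+TNF range stood 9, 9, 6 and 17 of the 30 genes, and above it 10, 10, 9 and 7. Wnt3 (edgeR log2 fold change 0.72 ± 0.21, adjusted p = 0.157), the Wnt ligand that Paneth cells supply to stem cells, had no overlap, with 47.01 to 65.2 CPM in PBS+TNF and 100.3, 113, 95.6 and 68.96 CPM in DEX+TNF. Gfi1, a repressor needed for the Paneth cell fate, was at 1.35 to 5.37 CPM in PBS+TNF and 8.95, 8.81, 18.4 and 7.88 CPM in DEX+TNF (edgeR log2 fold change 1.39 ± 0.35, adjusted p = 0.0977).

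Hpgd (ENSMUSG00000031613, chromosome 8, 56747543 to 56774082, plus strand), which degrades prostaglandins, was at 41.2, 34.1, 30.7 and 22.9 CPM in PBS+TNF and 81.9, 77.8, 437 and 205 CPM in DEX+TNF (edgeR log2 fold change 2.64 ± 0.46, adjusted p = 0.0295). As with the fasting genes, libraries 3 and 4 held the higher values. PBS+PBS libraries held 177 to 253 CPM of Hpgd, so DEX+TNF 1 and 2 were below that range, 3 above it and 4 inside it. Sstr3 (ENSMUSG00000044933, chromosome 15, 78421208 to 78428886, minus strand), a somatostatin receptor, was at 0.396 to 1.16 CPM in PBS+TNF and 4.36, 4.45, 5.41 and 3.54 CPM in DEX+TNF (edgeR log2 fold change 2.83 ± 0.53, adjusted p = 0.0295). Mymx (ENSMUSG00000079471, chromosome 17, 45911239 to 45913028, minus strand), a fusion peptide known from muscle, was at 1.15 to 2.50 CPM in PBS+TNF and 4.76, 3.23, 13.9 and 7.38 CPM in DEX+TNF (edgeR log2 fold change 2.06 ± 0.41, adjusted p = 0.0351). All DEX+TNF libraries exceeded PBS+TNF at these low levels. PBS+PBS libraries held 0.879 to 4.45 CPM of Sstr3 and 8.49 to 11.1 CPM of Mymx, so for Mymx DEX+TNF 1, 2 and 4 were below that range. Trp53inp1, a p53-induced autophagy protein, had 59.1, 65.8, 97.7 and 51.4 CPM in PBS+TNF and 189, 161, 249 and 170.1 CPM in DEX+TNF (edgeR log2 fold change 1.49 ± 0.24, adjusted p = 0.0264). The other called increases were Zfp667, Slc43a2, Mgll, Gm15889, Fam117a, Cyp27a1, Crebrf, Acy1, Aqp1, Rgs7bp and Cemip. Of these, Rgs7bp had 0, 0, 0 and 1 raw counts and Cemip 0, 0, 0 and 2 in PBS+TNF 1 to 4, too few for a fold change.

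Interferon-induced genes had medians below PBS+TNF in each of the 4 DEX+TNF libraries, although few genes were called. Of 53 listed antiviral genes 46 were tested, 0 were called higher and 2 lower, 16 had no overlap on the lower side and 0 on the higher side, and 45 of the 46 log2 fold changes were below 0 with a median of -0.78. DESeq2 called 5 of them, all lower. The median difference from the PBS+TNF mean was -0.59, -0.47, -1.19 and -1.07 in DEX+TNF 1 to 4. Below the lowest PBS+TNF value stood 32, 28, 35 and 34 of the 46 genes in DEX+TNF 1 to 4, and above the highest 2, 4, 0 and 0. Of 16 guanylate-binding protein and immunity-related GTPase genes, which attack the membranes of intracellular pathogens, 10 were tested. All 10 had no overlap on the lower side, edgeR called 0 (10 at an unadjusted p under 0.05) and DESeq2 called 5, and the medians were -1.20, -1.19, -3.08 and -3.21 in DEX+TNF 1 to 4. Only 6 of the 10 would have passed the filter without the PBS+TNF libraries, and 41 of the 46 antiviral genes, so genes high only in PBS+TNF are favoured among those tested. Of the other 6, Gbp2b had 0 counts in every library, and Gbp4, Gbp8, Tgtp1, Tgtp2 and Gm12185 reached 12 to 24 raw counts in PBS+TNF and 4 to 6 in DEX+TNF.

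Promoters of 4 of these genes and of the TNF-induced genes Nfkbia and Cxcl1 are shown because they hold the letters of elements through which interferons and TNF are known to act. Each was cut from the GRCm39 assembly, from 250 bases before to 50 bases after the start annotated in GENCODE M39. Letters run 5′ to 3′ on the gene's strand. Capitals mark matches on either strand to the interferon-stimulated response element TTTCNNTTTC (ISRE), the interferon-gamma activated sequence TTCNNNGAA (GAS) or the NF-kB motif GGGANNTTCC, where N is any base, and matches of different motifs may overlap. The ISRE letters were found in 6 of 10 tested GTPase genes, in 19 of 46 antiviral genes and in 3.41% of all 11794 promoters searched. The GAS letters were found in 4 of the 10 GTPase genes and 7.3% of all promoters, and the NF-kB letters in 5 of 41 NF-kB list genes and 1.58% of all promoters. The matches are a description of letters, and binding was not measured.
Gbp2, chr3:142326099-142326398, plus strand: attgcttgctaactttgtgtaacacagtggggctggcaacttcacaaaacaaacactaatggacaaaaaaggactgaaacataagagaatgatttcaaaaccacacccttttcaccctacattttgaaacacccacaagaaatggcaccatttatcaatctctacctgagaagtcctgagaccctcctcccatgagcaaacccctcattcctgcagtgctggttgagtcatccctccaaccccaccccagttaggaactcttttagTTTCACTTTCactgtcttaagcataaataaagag
Irgm2, chr11:58090194-58090493, plus strand: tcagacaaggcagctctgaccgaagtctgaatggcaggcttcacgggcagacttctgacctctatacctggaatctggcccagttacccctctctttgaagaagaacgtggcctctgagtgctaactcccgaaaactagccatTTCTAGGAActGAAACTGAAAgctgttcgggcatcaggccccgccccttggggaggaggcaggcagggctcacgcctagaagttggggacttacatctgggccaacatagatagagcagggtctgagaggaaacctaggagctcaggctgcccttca
Rtp4, chr16:23428396-23428695, plus strand: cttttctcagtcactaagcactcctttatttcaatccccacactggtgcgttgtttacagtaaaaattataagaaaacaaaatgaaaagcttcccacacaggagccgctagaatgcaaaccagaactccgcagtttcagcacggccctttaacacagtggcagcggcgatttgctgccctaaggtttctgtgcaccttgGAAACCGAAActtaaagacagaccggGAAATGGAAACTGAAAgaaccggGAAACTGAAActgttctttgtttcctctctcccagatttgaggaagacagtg
Ifit1, chr19:34618021-34618320, plus strand: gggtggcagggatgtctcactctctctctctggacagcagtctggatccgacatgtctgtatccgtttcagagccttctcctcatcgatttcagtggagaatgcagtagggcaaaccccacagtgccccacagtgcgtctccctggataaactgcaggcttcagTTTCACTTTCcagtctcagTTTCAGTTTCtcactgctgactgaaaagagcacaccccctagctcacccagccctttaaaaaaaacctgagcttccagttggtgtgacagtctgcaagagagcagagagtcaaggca
Nfkbia, chr12:55539383-55539682, minus strand: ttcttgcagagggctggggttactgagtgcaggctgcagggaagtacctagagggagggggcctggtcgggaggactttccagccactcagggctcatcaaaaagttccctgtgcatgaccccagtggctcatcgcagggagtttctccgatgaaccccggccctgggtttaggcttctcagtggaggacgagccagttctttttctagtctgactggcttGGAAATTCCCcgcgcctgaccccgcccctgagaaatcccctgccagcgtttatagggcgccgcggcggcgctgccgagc
Cxcl1, chr5:91038844-91039143, plus strand: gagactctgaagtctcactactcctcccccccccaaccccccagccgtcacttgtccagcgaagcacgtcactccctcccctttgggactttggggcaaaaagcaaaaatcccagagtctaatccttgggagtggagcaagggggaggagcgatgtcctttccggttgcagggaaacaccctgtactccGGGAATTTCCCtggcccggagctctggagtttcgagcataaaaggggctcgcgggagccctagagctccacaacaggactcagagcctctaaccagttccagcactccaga

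Gbp2, whose ISRE match begins 17 bases after the start, was at 126, 119, 62.4 and 61.8 CPM in PBS+TNF and 28.3, 37.7, 0.919 and 1.99 CPM in DEX+TNF (edgeR log2 fold change -2.42 ± 0.87, adjusted p = 0.262). DEX+TNF 1 and 2 lay below PBS+TNF but far above the libraries without TNF (0 to 3.58 CPM in PBS+PBS), and 3 and 4 lay within the range of the latter. Irgm2, with a GAS match beginning 107 bases and an ISRE match 96 bases before the start, was at 45.7, 55.5, 35.9 and 42.8 CPM in PBS+TNF and 17.8, 25.5, 4.70 and 6.48 CPM in DEX+TNF (edgeR log2 fold change -1.72 ± 0.48, adjusted p = 0.140). It overlaps its neighbour Igtp on the same strand, so reads may be shared between them. DESeq2 called Irgm2 (adjusted p = 0.0277), Iigp1 (0.0146) and Gbp9 (0.0194). Iigp1 was at 1.16 to 7.36 CPM in PBS+TNF and 0.323, 0.566, 0.306 and 0.0499 CPM in DEX+TNF (edgeR log2 fold change -3.34 ± 0.93, adjusted p = 0.134). Gbp9 was at 2.23 to 3.32 CPM in PBS+TNF and 0.645, 0.566, 0.612 and 0.150 CPM in DEX+TNF (edgeR log2 fold change -2.40 ± 0.69, adjusted p = 0.143). Iigp1 and Gbp9 passed the low-count filter only through PBS+TNF, the group in which they were high, so their calls carry no weight of their own.

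Rtp4 (ENSMUSG00000033355, chromosome 16, 23337811 to 23432972, plus strand), an interferon-induced chaperone of receptors, was at 16.8, 8.86, 8.999 and 10.4 CPM in PBS+TNF and 4.52, 3.48, 2.04 and 2.19 CPM in DEX+TNF (edgeR log2 fold change -1.87 ± 0.33, adjusted p = 0.0295). Its promoter held 4 ISRE matches, beginning 51, 25, 19 and 2 bases before the start. Those at 25 and 19 share bases, and the last runs across the start. Parp9 (ENSMUSG00000022906, chromosome 16, 35758840 to 35792980, plus strand), which forms an antiviral complex with Dtx3l, was at 41.4, 32.7, 36.1 and 28.4 CPM in PBS+TNF and 19.1, 18.5, 7.45 and 9.72 CPM in DEX+TNF (edgeR log2 fold change -1.33 ± 0.27, adjusted p = 0.0457). Dtx3l overlaps Parp9 on the opposite strand. These were the 2 list members that edgeR called. Ifit1, an RNA-binding antiviral protein with 2 ISRE matches, 86 and 67 bases before its start, was at 5.01, 3.62, 2.81 and 2.97 CPM in PBS+TNF and 0.645, 0.404, 0.204 and 0.0997 CPM in DEX+TNF (edgeR log2 fold change -3.40 ± 0.72, adjusted p = 0.0530), which missed the threshold, and DESeq2 called it (adjusted p = 7.83e-05). Ifit1 likewise passed the filter only through PBS+TNF.

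The called decreases of largest size, Slfn2 and Phf11d, belong to families that interferon also induces. Slfn2 (ENSMUSG00000072620, chromosome 11, 82955609 to 82961504, plus strand), a Schlafen protein of immune and epithelial cells, had 31, 64, 90 and 176 raw counts in PBS+TNF 1 to 4 and 12, 7, 2 and 6 in DEX+TNF 1 to 4. Its level was 3.86 to 8.72 CPM in PBS+TNF and 0.968, 0.566, 0.204 and 0.299 CPM in DEX+TNF (edgeR log2 fold change -3.59 ± 0.57, adjusted p = 0.0236), and the 4 PBS+PBS libraries together held 3 counts. Phf11d (ENSMUSG00000068245, chromosome 14, 59584654 to 59602945, minus strand), a PHD finger protein, had 20 to 32 raw counts per PBS+TNF library and 4, 3, 3 and 2 in DEX+TNF 1 to 4 (edgeR log2 fold change -3.23 ± 0.64, adjusted p = 0.0375). Both belong to clusters of similar genes, so their counts are uncertain. Each passed the low-count filter only through PBS+TNF, as did the called gene ENSMUSG00000085189, which carries no symbol in GENCODE M39 and had 15 to 68 counts in PBS+TNF and 3 to 7 in DEX+TNF (edgeR log2 fold change -2.98 ± 0.60, adjusted p = 0.0376).

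**Figure D3:**
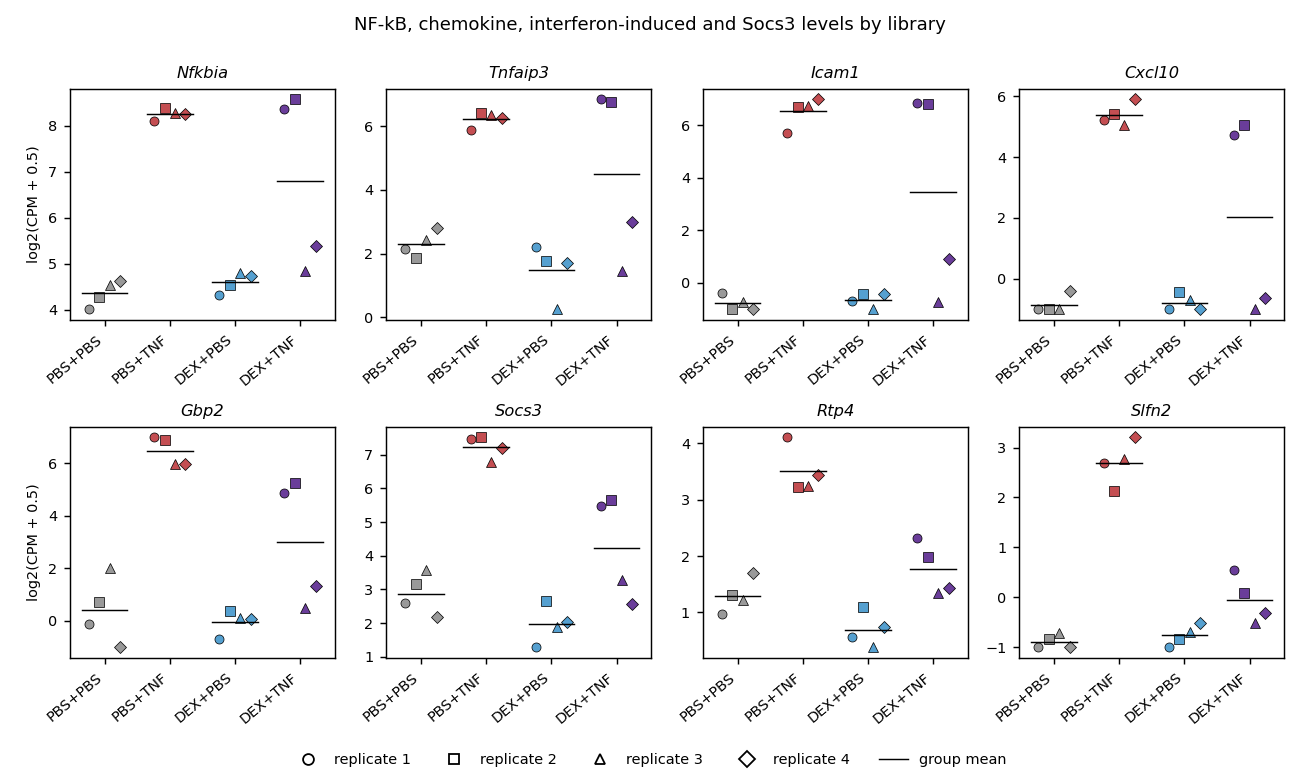
Log2(CPM + 0.5) of 8 inflammatory genes in the 4 groups, with 1 symbol per library and a line at the group mean. In the panels of Gbp2, Socs3, Rtp4 and Slfn2 all 4 DEX+TNF symbols lie below PBS+TNF, whereas for Nfkbia, Tnfaip3 and Icam1 DEX+TNF 1 and 2 lie within or above the PBS+TNF range and 3 and 4 near the groups without TNF.

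The NF-kB feedback genes and TNF targets divided the DEX+TNF libraries. Of 49 listed genes 41 were tested, edgeR called 0 (12 at an unadjusted p under 0.05) and DESeq2 1, 7 had no overlap on the lower side, and the median log2 fold change was -0.66. Without PBS+TNF 37 of the 41 would have passed the filter. Singly, the medians were 0.02 and 0.05 in DEX+TNF 1 and 2 and -2.19 and -1.88 in 3 and 4. DEX+TNF 1 had 12 of the 41 genes below the PBS+TNF range, 23 within it and 6 above it, and DEX+TNF 2 had 13, 15 and 13. DEX+TNF 3 had 34 below and 3 above, and DEX+TNF 4 had 32 below and 3 above.

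Nfkbia, the inhibitor that retains NF-kB in the cytoplasm, has an NF-kB match beginning 29 bases before its start. It was at 277, 337, 311 and 308 CPM in PBS+TNF and 330.0, 382, 28.3 and 41.04 CPM in DEX+TNF (edgeR log2 fold change -0.66 ± 0.56, adjusted p = 0.693). Tnfaip3, the ubiquitin-editing inhibitor A20, was at 58.9, 86.03, 82.5 and 76.5 CPM in PBS+TNF and 115, 109.6, 2.25 and 7.38 CPM in DEX+TNF (edgeR log2 fold change -0.38 ± 0.76, adjusted p = 0.891). In both genes DEX+TNF 1 and 2 were close to PBS+TNF or above it, and 3 and 4 were near the PBS+PBS range (15.6 to 24.1 and 3.13 to 6.53 CPM). Icam1, an adhesion molecule for leukocytes, was at 52.2, 104, 106 and 127 CPM in PBS+TNF and 116, 114, 0.102 and 1.40 CPM in DEX+TNF (edgeR log2 fold change -0.76 ± 1.03, adjusted p = 0.826). Icam1 passed the filter only through PBS+TNF. Tnfrsf1a, the main TNF receptor, was at 57.99 to 117 CPM in PBS+TNF and 115, 126, 51.5 and 57.6 CPM in DEX+TNF (edgeR log2 fold change -0.08 ± 0.32, adjusted p = 0.946).

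Some genes of the list did lie below PBS+TNF in all 4 libraries. Nos2, the inducible nitric oxide synthase, was at 233, 238, 181 and 466 CPM in PBS+TNF and 103, 106, 0.306 and 20.2 CPM in DEX+TNF (edgeR log2 fold change -2.29 ± 0.94, adjusted p = 0.336). DEX+TNF 4, at 20.2 CPM, was above all libraries without TNF in this gene, and DEX+TNF 3 was within their range. Map3k8, the kinase TPL2, was at 1.55 to 3.01 CPM in PBS+TNF and 0.887, 1.46, 1.02 and 0.449 CPM in DEX+TNF (edgeR log2 fold change -1.43 ± 0.46, adjusted p = 0.196). Tnfaip8 (edgeR log2 fold change -1.73 ± 0.55, adjusted p = 0.194), Irf1 (edgeR log2 fold change -0.95 ± 0.37, adjusted p = 0.318), Ripk1 (edgeR log2 fold change -0.72 ± 0.27, adjusted p = 0.284), Ier3 (edgeR log2 fold change -1.54 ± 0.61, adjusted p = 0.321) and Zc3h12a (edgeR log2 fold change -0.73 ± 0.30, adjusted p = 0.333) were the others. DESeq2 called Tnfaip8 (adjusted p = 0.0496). Fas, the death receptor (edgeR log2 fold change -1.58 ± 0.55, adjusted p = 0.236), overlapped, because DEX+TNF 1 and 2 (21.2 and 22.4 CPM) fell inside the PBS+TNF range.

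Chemokine genes followed the same division. Of 20 listed genes 11 were tested, edgeR and DESeq2 called 0 (3 at an unadjusted p under 0.05 in edgeR) and 0 had no overlap, with single-library medians of -0.11, -0.15, -2.47 and -2.84. Ccl20, which attracts lymphocytes to the epithelium, was at 16.2, 18.4, 28.5 and 18.2 CPM in PBS+TNF and 36.9, 25.4, 1.43 and 2.64 CPM in DEX+TNF (edgeR log2 fold change -0.30 ± 0.68, adjusted p = 0.909). Cxcl10, induced by interferons and TNF together, was at 36.4, 41.7, 32.6 and 59.03 CPM in PBS+TNF and 26.1, 32.99, 0 and 0.150 CPM in DEX+TNF (edgeR log2 fold change -1.52 ± 1.00, adjusted p = 0.595). Cxcl1, a neutrophil attractant whose promoter holds 2 overlapping NF-kB matches, beginning 61 and 60 bases before the start, was at 4.24, 1.87, 4.50 and 3.12 CPM in PBS+TNF and 2.42, 0.647, 0 and 0.0499 CPM in DEX+TNF (edgeR log2 fold change -2.13 ± 0.99, adjusted p = 0.416). Libraries 3 and 4 had almost no counts of Cxcl10 and Cxcl1, while DEX+TNF 2 lay within the PBS+TNF range for Cxcl10 and DEX+TNF 1 for Cxcl1, each with the other library of that pair below it. Ccl9 (edgeR log2 fold change -0.94 ± 0.42, adjusted p = 0.389) and Cxcl11 (edgeR log2 fold change -2.13 ± 0.91, adjusted p = 0.356) also overlapped. Only 7 of the 11 tested chemokine genes would have passed the low-count filter without PBS+TNF, and Cxcl1, Cxcl10 and Cxcl11 were not among them.

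**Figure D4:**
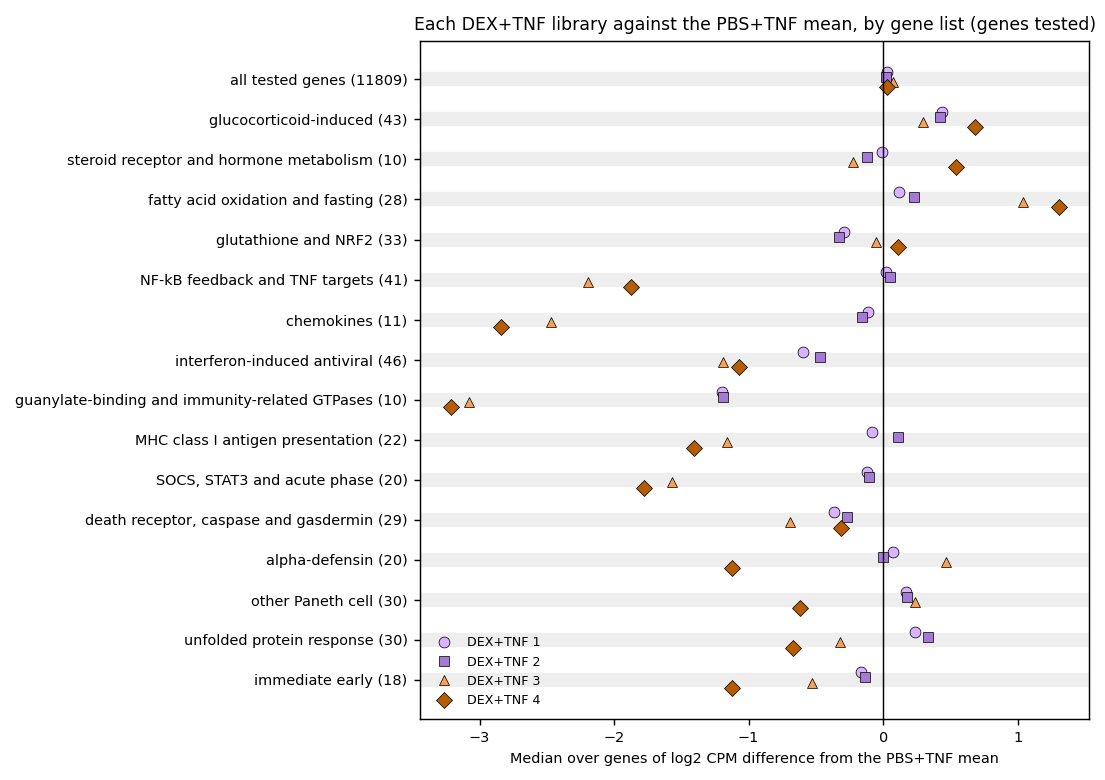
Median over the tested genes of each list of the log2 CPM difference from the PBS+TNF mean (horizontal axis), for each DEX+TNF library singly, with the number of tested genes beside the list's name. GTPase and antiviral genes lie below 0 in all 4 libraries, glucocorticoid and fasting genes above 0 in all 4, and NF-kB, chemokine and MHC class I genes near 0 in DEX+TNF 1 and 2 and well below it in 3 and 4.

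Among inhibitors and mediators of cytokine signalling, Socs1 and Socs3 stood below PBS+TNF in all 4 DEX+TNF libraries. Socs3, which blocks signalling by interleukin 6 family receptors, was at 178, 182, 109 and 147 CPM in PBS+TNF and 43.9, 50.2, 9.19 and 5.44 CPM in DEX+TNF (edgeR log2 fold change -2.50 ± 0.56, adjusted p = 0.0679). Socs1, the main inhibitor of interferon receptors, was at 3.85, 1.45, 2.95 and 2.87 CPM in PBS+TNF and 0.565, 0.323, 0.204 and 0.199 CPM in DEX+TNF (edgeR log2 fold change -3.07 ± 0.68, adjusted p = 0.0641). All 4 DEX+TNF libraries were low in both, and DESeq2 called both (adjusted p = 0.000664 and 0.000796). Socs1 passed the low-count filter only through PBS+TNF, and 17 of the 20 tested genes of this list would have passed without that group. Il6ra, a subunit of the interleukin 6 receptor, was at 0.193 to 2.29 CPM in PBS+TNF and 2.74, 2.99, 7.55 and 8.28 CPM in DEX+TNF, with no overlap on the higher side (edgeR log2 fold change 2.01 ± 0.53, adjusted p = 0.110). Over 20 tested genes of 30 listed, edgeR called 0 (9 at an unadjusted p under 0.05) and DESeq2 3, 1 had no overlap on the higher side and 4 on the lower side, and single-library medians were -0.12, -0.11, -1.57 and -1.78.

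Antigen presentation and cell death genes were also examined by list. Of 22 genes of MHC class I presentation, all tested, edgeR and DESeq2 called 0 (3, or 13.6%, at an unadjusted p under 0.05 in edgeR, near the 11.9% of all tested genes) and 5 had no overlap on the lower side (median log2 fold change -0.44). The single-library medians were -0.09, 0.11, -1.16 and -1.41. The immunoproteasome subunits Psmb8 (edgeR log2 fold change -1.01 ± 0.43, adjusted p = 0.356) and Psmb10 (edgeR log2 fold change -1.05 ± 0.41, adjusted p = 0.320) and the activator Psme2 (edgeR log2 fold change -1.30 ± 0.52, adjusted p = 0.322) were among the 5, and Psmb8 was at 30.5 to 48.5 CPM in PBS+TNF and 24.6, 28.4, 8.78 and 8.18 CPM in DEX+TNF. Psme1 and the class I transactivator Nlrc5 were the other 2. Of 29 tested genes of death receptors, caspases and gasdermins, edgeR and DESeq2 called 0 (8 at an unadjusted p under 0.05 in edgeR), 1 had no overlap on the higher side (Casp9) and 4 on the lower side (Aim2, Casp8, Mlkl and Ripk3). Ripk3, the necroptosis kinase, was at 11.2, 11.9, 11.04 and 14.7 CPM in PBS+TNF and 6.45, 5.50, 3.78 and 7.98 CPM in DEX+TNF (edgeR log2 fold change -1.03 ± 0.32, adjusted p = 0.185). All 4 DEX+TNF values lay below the lowest PBS+TNF value. Its substrate Mlkl was at 5.78 to 8.93 CPM in PBS+TNF and 3.47, 4.37, 0.817 and 1.40 CPM in DEX+TNF (edgeR log2 fold change -1.56 ± 0.56, adjusted p = 0.260). Casp4, a sensor of bacterial lipopolysaccharide, was at 191, 86.7, 89.9 and 59.7 CPM in PBS+TNF and 55.1, 59.7, 6.43 and 5.98 CPM in DEX+TNF (edgeR log2 fold change -1.74 ± 0.60, adjusted p = 0.226), and the ranges met only at PBS+TNF 4 and DEX+TNF 2.

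Glutathione genes split in direction. Of 37 listed genes 33 were tested, 0 were called higher and 2 lower, with a median log2 fold change of -0.10. Gpx2 (ENSMUSG00000042808, chromosome 12, 76839107 to 76842326, minus strand), the glutathione peroxidase of the gut epithelium, was at 765, 563, 459 and 491 CPM in PBS+TNF and 212, 233, 121 and 88.01 CPM in DEX+TNF (edgeR log2 fold change -1.80 ± 0.35, adjusted p = 0.0351). The catalytic subunit of the enzyme that starts glutathione synthesis, Gclc (ENSMUSG00000032350, chromosome 9, 77661797 to 77701770, plus strand), was at 177, 241, 164 and 186 CPM in PBS+TNF and 84.3, 92.4, 26.9 and 28.9 CPM in DEX+TNF (edgeR log2 fold change -1.72 ± 0.34, adjusted p = 0.0351). In both genes libraries 1 and 2 lay between PBS+TNF and PBS+PBS (84.1 to 185 and 24.7 to 32.8 CPM), and 3 and 4 lay in the PBS+PBS range. Gclm, the regulatory subunit of the same enzyme, stood on the other side, with 8.48 to 13.1 CPM in PBS+TNF and 15.1, 18.4, 19.4 and 23.04 CPM in DEX+TNF (edgeR log2 fold change 0.76 ± 0.20, adjusted p = 0.102). DESeq2 called Gclm higher (adjusted p = 0.0180). Gpx2 overlaps Fntb on the opposite strand.

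The other called decreases were spread over several functions. Pstpip2 (ENSMUSG00000025429, chromosome 18), an adaptor that restrains inflammasome activity, was at 61.5, 41.3, 47.2 and 40.3 CPM in PBS+TNF and 22.3, 21.9, 10 and 8.88 CPM in DEX+TNF (edgeR log2 fold change -1.59 ± 0.30, adjusted p = 0.0295). Sema6b (ENSMUSG00000001227, chromosome 17, 56430078 to 56449459, minus strand), a transmembrane semaphorin, was at 5.77 to 11.7 CPM in PBS+TNF and 2.34, 3.23, 1.02 and 1.15 CPM in DEX+TNF (edgeR log2 fold change -2.05 ± 0.42, adjusted p = 0.0458). S100a11 (ENSMUSG00000027907, chromosome 3, 93414382 to 93435293, plus strand), a calcium-binding protein, was at 46.96 to 54.8 CPM in PBS+TNF and 28.7, 25.1, 9.49 and 16.4 CPM in DEX+TNF (edgeR log2 fold change -1.35 ± 0.27, adjusted p = 0.0351). In these 3 genes, as in Gclc, DEX+TNF 3 and 4 were lower than 1 and 2. Bzw2 (ENSMUSG00000020547, chromosome 12, 36141834 to 36208079, minus strand), a regulator of translation initiation, was at 46.8 to 60.9 CPM in PBS+TNF and 21.4, 24.5, 16.03 and 15.2 CPM in DEX+TNF (edgeR log2 fold change -1.42 ± 0.26, adjusted p = 0.0295). Gpsm2, Uchl3 and Gm8437 completed the list, with log2 fold changes of -0.89, -1.04 and -1.04. Gm8437 is annotated as a transcribed processed pseudogene and overlaps Slc37a1 on the opposite strand, so its counts are uncertain.

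Secretory products of the Paneth cell gave no call. The share of counts in alpha-defensin genes was 59.3%, 34.1%, 40.8% and 32.2% in PBS+TNF 1 to 4 and 38.6%, 38.6%, 47.5% and 37.3% in DEX+TNF 1 to 4. Counting error was small beside these differences between libraries, with a Wilson 95% interval of 32.2% to 32.3% for PBS+TNF 4. The means were 40.5% ± 4.70 (SD, n = 4) in DEX+TNF and 41.6% ± 12.3 (SD, n = 4) in PBS+TNF, a difference of -1.09 percentage points (two-sided exact permutation p = 0.914, smallest possible p 0.0286). PBS+TNF 1 decided the sign, since the difference was 4.79 points without it. Lyz1, the Paneth cell lysozyme, ranged from 41288 to 218798 CPM in PBS+TNF and was at 138919, 153506, 167397 and 47672 CPM in DEX+TNF (edgeR log2 fold change 0.32 ± 0.66, adjusted p = 0.895). Of 20 tested alpha-defensin genes of 28 listed, edgeR and DESeq2 called 0. In edgeR 0 had an unadjusted p under 0.05, and 0 had no overlap. The single-library medians were 0.07, 0.00, 0.47 and -1.12 in DEX+TNF 1 to 4. Below the PBS+TNF range stood 1, 0, 0 and 12 of the 20 genes, and above it 0 in each library. Reads of near-identical copies make single values uncertain. The 8 untested genes, Defa2, Defa20, Defa23, Defa31, Defa32, Defa33, Defa36 and Defa37, reached at most 19 raw counts in any library. The paper, which counted with Salmon on an updated annotation, lists all of these except Defa31 and Defa37 as abundant in a typical experiment. The share of counts given here may therefore cover only part of the family, and the reason was not tested.

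Of 30 tested genes of the unfolded protein response, edgeR called 0 (3, or 10%, at an unadjusted p under 0.05, against 11.9% of all tested genes) and DESeq2 2, and the single-library medians were 0.23, 0.33, -0.32 and -0.67. Xbp1, a transcription factor of secretory cells, was at 411, 475, 356 and 378 CPM in PBS+TNF and 299.6, 314, 181 and 134 CPM in DEX+TNF (edgeR log2 fold change -0.80 ± 0.26, adjusted p = 0.196). Xbp1 is spliced when the endoplasmic reticulum is stressed, and gene counts do not separate its spliced form. Herpud1, which acts in protein degradation at the endoplasmic reticulum, had no overlap on the higher side, with 159 to 208 CPM in PBS+TNF and 370.3, 309, 299 and 222 CPM in DEX+TNF (edgeR log2 fold change 0.74 ± 0.21, adjusted p = 0.143). Among 18 tested immediate early genes of 22 listed, edgeR and DESeq2 called 0 (6 at an unadjusted p under 0.05 in edgeR), 4 had no overlap on the lower side and 1 on the higher side. This list shares Dusp1 with the glucocorticoid list and Atf3 with the unfolded protein response list, and 12 of the 379 tested genes in the pathway lists stand in more than 1 of them. Zfp36, which destabilises cytokine mRNAs, was at 83.9 to 134 CPM in PBS+TNF and 75.1, 70.99, 28.3 and 24.6 CPM in DEX+TNF (edgeR log2 fold change -1.02 ± 0.35, adjusted p = 0.230). Klf6 (edgeR log2 fold change -0.82 ± 0.34, adjusted p = 0.334) and Atf3 (edgeR log2 fold change -1.56 ± 0.65, adjusted p = 0.343) also lay below PBS+TNF, and Fosb (edgeR log2 fold change 2.45 ± 0.79, adjusted p = 0.196) lay above it. Nr3c1, the glucocorticoid receptor, was at 10.6, 11.1, 8.999 and 10.3 CPM in PBS+TNF and 15.1, 12.6, 10.8 and 19.1 CPM in DEX+TNF (edgeR log2 fold change 0.50 ± 0.24, adjusted p = 0.435), and 0 of 10 tested steroid receptor and metabolism genes had no overlap.

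Among markers of other cells, those of tuft cells varied most between the DEX+TNF libraries. Dclk1, Trpm5, Sh2d6 and Sh2d7 were among the 5 genes with the largest spread there, counting those that averaged 5 CPM or more. Dclk1 and Trpm5 are tuft cell markers, and Sh2d6 and Sh2d7 are known from tuft cells as well. Dclk1 was at 1.93, 1.81, 23.7 and 40.7 CPM in PBS+TNF and 0, 0, 53.8 and 206 CPM in DEX+TNF, and Trpm5, a taste channel, at 8.67, 1.27, 25.2 and 42.1 and 0.403, 0, 55.5 and 189.8 CPM. The sum of 6 tuft markers was 4.84 to 183 CPM in PBS+TNF and 1.56, 0.165, 117 and 860 CPM in DEX+TNF 1 to 4, where 3, 5, 1 and 0 of the 6 were at 0. Tuft cell RNA was thus nearly absent from DEX+TNF 1 and 2 and highest in DEX+TNF 4. Cycling markers summed to 36.1 to 213 CPM in PBS+TNF and to 49.1, 39.8, 49.3 and 303 CPM in DEX+TNF 1 to 4. Goblet markers summed to 17192 to 23994 CPM in PBS+TNF and to 10165, 11985, 16311 and 10852 CPM in DEX+TNF. These sums were below PBS+TNF in every library, but 0 of the 8 goblet markers singly had no overlap, and their mean log2 CPM in DEX+TNF 3, 8.84, lay within the PBS+TNF range of 8.14 to 9.44. Enteroendocrine markers summed to 6133 to 11945 CPM in PBS+TNF and to 2471, 2785, 7370.3 and 5942 CPM in DEX+TNF, and stem cell markers to 303 to 1792 CPM and to 773, 691, 634 and 2597 CPM. By these sums DEX+TNF 4 was also the highest of the 8 libraries in stem and cycling markers, and DEX+TNF 1 and 2 the lowest in enteroendocrine markers. Of the 9 enteroendocrine markers, 5, 6, 4 and 3 were at 0 counts in DEX+TNF 1 to 4, and Reg4 also stands in the other Paneth cell list. The mean log2 CPM of the 5 tested ones was 1.46, 1.89, 4.24 and 3.01 in DEX+TNF 1 to 4. In PBS+TNF it was 2.48 to 3.94, so DEX+TNF 1 and 2 were again the lowest, but DEX+TNF 3 was the highest. Immune markers summed to 41.0 to 42.8 CPM in PBS+TNF and 63.4 to 76.5 CPM in DEX+TNF, with 8 to 13 of 14 genes at 0. In DEX+TNF 2, 13 of the 14 were at 0, so a single gene made up its sum of 73.0 CPM. The mean log2 CPM of the 2 tested immune markers, Ptprc and Lyz2, was 1.69, 1.70, 4.54 and 4.37 in DEX+TNF 1 to 4. In PBS+TNF it was 1.14 to 3.58, so DEX+TNF 1 and 2 lay within that range. Stromal and red blood cell markers summed to at most 1.42 CPM. Paneth markers summed to at least 414390 CPM in all 8 libraries. The part of these cells in the results above was not tested.

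DEX given without TNF was set beside these values, from a contrast that shares no library with them. Sgk1 had a log2 fold change of 3.76 for DEX+PBS over PBS+PBS, Hif3a 2.45, Fkbp5 2.27 and Zbtb16 2.12, against 3.06, 2.64, 1.65 and 2.45 in TNF-treated mice. Acot2 (0.26), Bambi (-0.46), Tent5c (0.13), Gpx2 (0.00) and Gclc (-0.15) had values nearer 0 or of the other sign without TNF. Of all these, edgeR called only Sgk1 between DEX+PBS and PBS+PBS (adjusted p = 0.00998). Whether the DEX effect differed with and without TNF was tested by the interaction term, for which 0 genes passed in edgeR. Its smallest adjusted p was 0.102, and the unadjusted p was under 0.05 in 642 genes. The interaction was 3.12 (SE 0.67) for Bambi and -0.70 (SE 0.65) for Sgk1. No single gene passed the test of a difference between the 2 DEX effects.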

How the data were processed

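RNA of sorted Paneth cells was sequenced in 16 libraries, 4 for each of 4 treatments, and DEX+TNF was compared with PBS+TNF. The authors deposited raw counts per Ensembl gene identifier. Per the labels, libraries were made with a stranded mRNA kit. The submitters' processing notes name FastQC 0.12, STAR 2.7.10a and the build mm39 (GRCm39), and the study's methods name the GENCODE M30 annotation. The counting program, its use of strand and its treatment of reads that map to several places are not given in the sources used here, which matters for alpha-defensins and overlapping genes.

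The sample labels gave each library's group and number. Identifiers were named from GENCODE M39, which holds 54749 of the 55414, and the other 665 carry 0.00519% of counts. edgeR 4.0.16 (R 4.3.3) was fitted to all 16 libraries with a mean per group, TMM factors, its default low-count filter and robust quasi-likelihood tests, with Benjamini-Hochberg adjustment over all 11809 tested genes and a threshold of 0.05. The code was tested on simulated data. DESeq2 1.42.0, limma 3.58.1 with sample weights, other scalings and filters, a replicate block and left-out libraries were alternatives. Total counts were 7286307 to 15832111 per library, and intervals of shares cover counting error only.

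The libraries compared, the gene lists and the tests were chosen with earlier results of these data known. The genes named were the 12 largest called increases and decreases with a mean of at least 1 CPM, the 3 genes of smallest p in each list, 19 genes by name, and the 5 genes with the largest spread within DEX+TNF at a mean of at least 5 CPM. Other genes were named after their values were seen, and some genes that the rule names are not reported here.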

Additional observations from a re-analysis of the deposited data

Results flagged for a closer look

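Among 186 groups of 4 values examined, 13 had a highest or lowest library whose gap to the nearest other exceeded Dixon's critical value as a share of the group's range, and chance flags about 1 group in 20. In DEX+TNF 4, Fkbp5 was at 135 CPM against 43.2 to 44.6 in the other 3 libraries. Lyz1 was at 47672 CPM there against 138919 to 167397, and Gbp9 at 0.150 against 0.566 to 0.645. In DEX+TNF 3, Gfi1 was at 18.4 CPM against 7.88 to 8.95. Defa40 was at 2260.3 CPM there against 738 to 881, and the share of counts in alpha-defensin genes was 47.5% against 37.3% to 38.6%.

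In PBS+TNF 1, Cxcl11 was at 87.1 CPM against 18.3 to 23.3 and Psmb8 at 48.5 against 30.5 to 31.6. Gfi1 was at 1.35 CPM in that library against 4.29 to 5.37 and Nkd1 at 1.54 against 4.64 to 5.61. In PBS+TNF 2, Dusp1 was at 19.7 CPM against 11.4 to 12.5. The mean log2 CPM of the GTPase list was 4.18 there against 3.44 to 3.56. In PBS+TNF 3, Map3k8 was at 1.55 CPM against 2.77 to 3.01.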

How the results depend on the processing

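The number of called genes, 40 (26 higher, 14 lower), was the value that moved most. Other choices within edgeR gave 33 to 47 calls. The replicate block gave 16 calls (12 higher, 4 lower), all among the 40. Replicate numbers were not treated as pairing the samples in the main fit. The correlations of same-numbered deviations in PBS+TNF and DEX+TNF were -0.0537, 0.412, 0.233 and 0.504. Of the 4 DEX+TNF libraries, 2 correlated best with their own number. Over all 24 same-numbered pairs of libraries the correlations ran from -0.365 to 0.504. Whether libraries of the same number share an effect was not tested. A fit of the 8 libraries alone called 0 genes, a threshold of 0.01 called 0, DESeq2 called 274 (40 shared) and limma with sample weights 181 (78 higher, 103 lower, 34 shared). limma weighted DEX+TNF 1 to 4 by 2.39, 2.04, 0.280 and 0.246. Leaving out single libraries gave 0 to 102 calls. Added after seeing the data, DESeq2 without DEX+TNF 3 and 4 called 116 genes (30 shared) and without DEX+TNF 1 and 2 called 1836. edgeR called 0 and 1317 in the same settings. No overlap held for 754 genes, for 2942 without DEX+TNF 3 and 4 and for 3692 without DEX+TNF 1 and 2, where fewer values have to be separated. Without DEX+TNF 1 and 2 the medians of the NF-kB, antiviral and GTPase lists were -2.24, -1.18 and -3.92.

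Directions turned for the following log2 fold changes, none of them called in the fit of all libraries. Under limma with sample weights they were 0.0469 for Ccl20, -7.17 for Dclk1, -0.0924 for Nr5a2, -6.05 for Sh2d6, -6.20 for Sh2d7, 0.0102 for Tnfaip3, 0.26 for Tnfrsf1a and -5.52 for Trpm5. Without DEX+TNF 3 and 4 they were 0.61 for Ccl20, -10.87 for Dclk1, 0.24 for Icam1, 0.21 for Nfkbia, -0.36 for Nr5a2, -9.47 for Sh2d6, -9.94 for Sh2d7, 0.57 for Tnfaip3, 0.38 for Tnfrsf1a and -6.53 for Trpm5. With single libraries left out, values ran from -1.05 to 0.0811 for Ccl20, from -0.936 to 0.0238 for Tnfaip3 and from -0.313 to 0.10 for Tnfrsf1a, above 0 only without DEX+TNF 3 or 4 or, for Tnfrsf1a, PBS+TNF 2 (0.05). They ran from -0.20 to 2.58 for Sh2d6, -0.41 to 2.65 for Sh2d7 and -0.0641 to 2.38 for Trpm5, below 0 only without DEX+TNF 4. They ran from -0.98 to 0.36 for Defa24, -1.35 to 0.17 for Defa27, -1.61 to 0.12 for Defa40 and -1.28 to 0.10 for Defa41, and the difference in alpha-defensin share from -4.22 to 4.79 percentage points, above 0 only without PBS+TNF 1. The cause was not tested. With 4 libraries a group and unequal DEX+TNF libraries, a gene that was not called may still differ.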
